A study of Mus musculus with 4 samples.

Results

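Genomic imprinting marks a set of genes so that the maternal and the paternal copy differ in DNA methylation, and mostly only one copy is expressed. The methylation of 44 listed imprinted genes and of the control regions at their promoters was measured in 4 mouse tumors. The genes were taken from a list of well-known imprinted genes of the mouse, and a CpG site counted for a gene when it lay between 2000 bp upstream and 1000 bp downstream of one of its transcription start sites (TSS) and was covered by at least 20 reads in all 4 tumors. Windows of a gene that overlapped were joined into 1 promoter region, and for H19 the stretch from that window's edge to 5000 bp upstream was kept as a further region. Of the 44 genes, 39 had at least 1 such site, out of 22600 annotated genes with one in the whole data set. They held 46 measured promoter regions of 65, with 1558 sites when a shared site counts in each of its regions. In 2 pairs of genes all sites of a region are shared (Peg10 with Sgce, and Peg3 with Usp29), and regions of Gnas and Nespas share a part of theirs. Dcn, Ddc, Impact, Ndn and Rtl1 had no site with that coverage.

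The tumors came from a lung adenocarcinoma line of mice carrying K-ras and p53 mutations (K-ras LA1/+ and p53 R172HΔg/+), either from its parental form (344SQP) or from the form derived from it that resists anti-PD1 (344SQR). Cells were injected under the skin of the leg of syngeneic 129Sv/Ev females aged 12 to 16 weeks. All mice received anti-PD1 at 10 mg/kg from day 4 for 4 doses, and tumors were taken 24 h after the last one, and tumors given a control antibody are not analysed here. There were 2 parental and 2 resistant tumors, each line stands for 1 cell line, and the DNA was of whole tumor tissue, which holds host cells as well. Reduced representation bisulfite sequencing (RRBS) reads CpG-rich fragments and counts each cytosine of a CpG as methylated or not. The depth was 116794455 CpG calls in parental tumor 1, 138331886 in parental tumor 2, 160548303 in resistant tumor 1 and 174689402 in resistant tumor 2.

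Imprints are laid down in the germ line, in the egg for most control regions and in the sperm for a few, and the mark then passes through the wave of demethylation in the early embryo. Zfp57 and Zfp445 bind methylated control regions there and bring in Trim28, Setdb1 and the maintenance methyltransferase Dnmt1. Since 1 parental copy is methylated and the other is not, a germline control region reads 50% in normal somatic tissue. Promoters nearby can gain a secondary mark after implantation, and in tumors both kinds of mark can be lost or spread to the other copy. A bulk level does not tell these apart: 50% can come from 1 methylated copy in every cell or from both copies in some of the cells.

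Imprinted regions lay in the middle of the scale far more often than other promoters. From 35% to 65% in every tumor were 11 of the 46 regions (23.9%), against 2.36% of all 23720 promoter regions. Another 7 were above 65% in all 4 tumors, and 12 were below 35%, of which 8 stayed below 10%. The median over the imprinted regions was 51.9% and 56.7% in parental tumors 1 and 2, and 49.7% and 52.9% in resistant tumors 1 and 2. Over all promoter regions the medians were 7.08%, 8.25%, 6.0% and 5.95% in the same order. With a narrower band of 40% to 60%, 4 imprinted regions qualified, and the share of all regions in that band is not given here.

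**Figure D1:**
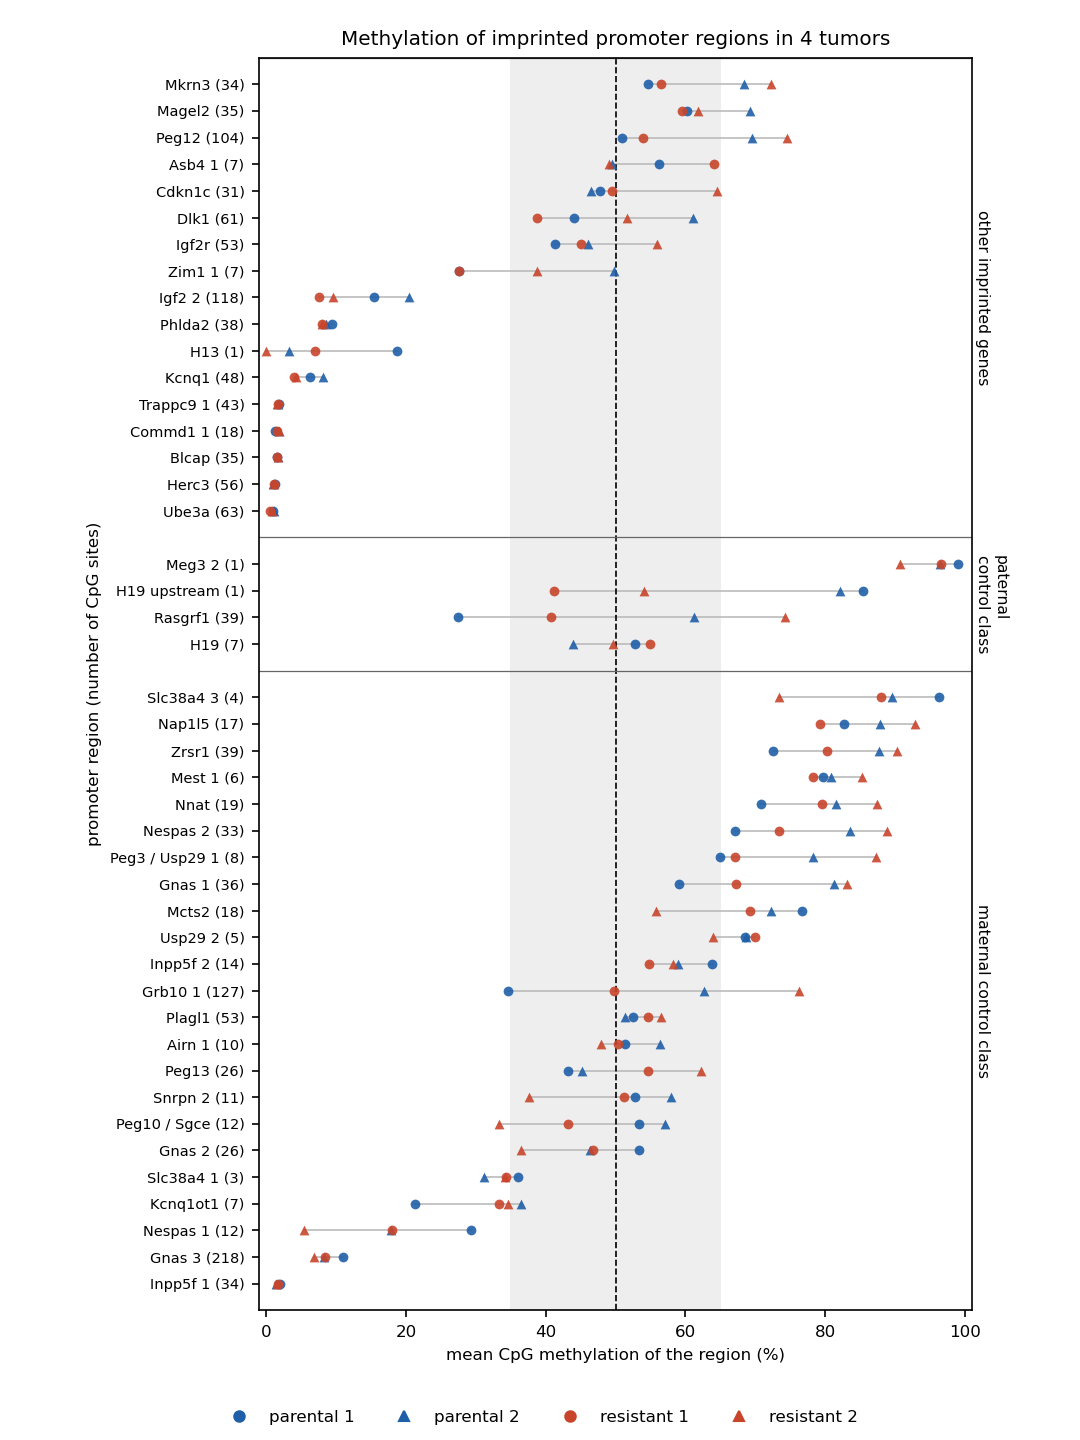
Mean CpG methylation (%) of each imprinted promoter region with its number of CpG sites, as 1 point per tumor (blue, parental; red, resistant; circle, tumor 1; triangle, tumor 2). The grey band spans 35% to 65%, the dashed line marks 50%, and 11 of 46 regions lie inside the band in all 4 tumors.

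The lines differed in level at many imprinted regions, but not in 1 direction. By a likelihood ratio test on the reads of each site, combined over the sites of a region (Stouffer's z score, false discovery rate (FDR) under 0.05 over all regions), 33 of 46 imprinted regions were called, against 43.2% of all regions. In resistant tumors 18 were lower and 15 higher, where the shares of all regions are 34.1% and 9.14%. A difference of at least 10 percentage points besides the FDR was met by 10 of 46, against 13.5% of all regions, and the tumors of the lines did not overlap in 16, against 41.9%. The median difference, resistant minus parental, was −0.0323 points over the imprinted regions and −0.317 points over all regions. The median over the imprinted regions was −2.10 points without parental tumor 1, −2.42 points without resistant tumor 2, and 0.0110 points at a minimum of 50 reads. Without regard to sign, the median was 5.05 points in the imprinted regions and 0.987 points in all regions. The sets were not matched for level: below 10% in every tumor were 8 of the 46 imprinted regions and 11936 of all 23720. These comparisons, here and for the classes below, therefore do not show a difference that goes with imprinting.

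The likelihood ratio test counts every read at every site as its own observation, so a read over several sites counts at each of them. Both strands of a CpG count as sites of their own. FDR values of regions with many sites can thus be far too small. Differences among tumors of the same line do not enter that test. edgeR's quasi-likelihood test, in which they do, called 0 of 46 imprinted regions at an adjusted p under 0.05, and 3 regions in all (0.0127% of 23707). At an unadjusted p under 0.05 were 6 imprinted regions, of which Peg10 and Sgce are the same sites (5 of 44 with each set of sites once), against 9.34% of all regions. The smallest adjusted p of an imprinted region was 0.333. With 2 tumors against 2, an exact permutation test of a single value cannot go below p = 0.33. The tumors of a line came from different mice but from 1 cell line, so the p-values cover no spread between lines, and the directions given for single regions are those of these 4 tumors.

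Of the 20 genes at maternally methylated germline control regions, 19 had sites, in 25 regions. The likelihood ratio test called 20 of these 25 (10 lower, 10 higher in resistant tumors), against 43.2% of all regions (34.1% lower, 9.14% higher), and 6 lay from 35% to 65% in all tumors, against 2.36%. The name of the class holds for the gene, since several of these genes have other promoters away from the control region.

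Near 50% were Plagl1 and Airn, while an internal promoter of Inpp5f lay further above 50%. Plagl1, a zinc finger transcription factor that restrains growth, read 52.6% and 51.4% against 54.7% and 56.5% over 53 sites (parental tumors 1 and 2 against resistant tumors 1 and 2), a difference of 3.62 points (FDR = 2.11e-11, edgeR adjusted p = 0.766). Both resistant tumors were above both parental tumors there. All 53 sites of Plagl1 in parental tumor 1, and 75.5% of them in resistant tumor 2, were between 35% and 65%. Airn is the noncoding RNA that silences Igf2r in cis, and its promoter is the control region in an intron of that gene. It read 51.3% and 56.3% in parental tumors and 50.4% and 47.9% in resistant tumors over 10 sites, all 10 lower in the resistant line on average (−4.64 points, FDR = 0.00839). Without parental tumor 1 the difference was −7.15 points. Without parental tumor 2 the difference was −2.13 points and without resistant tumor 2 it was −3.38 points, and neither passed the test (FDR = 0.800 and 0.223). The internal promoter of Inpp5f, which drives a short paternally expressed transcript, was at 63.8% and 58.9% against 54.8% and 58.2% over 14 sites, with the resistant tumors below both parental tumors (−4.86 points, FDR = 7.65e-05, edgeR adjusted p = 0.821). Its difference was −2.41 points without parental tumor 1, −7.31 points without parental tumor 2 and −3.14 points without resistant tumor 1, and passed the test each time. The upstream promoter of Inpp5f was nearly unmethylated, with 2.0% and 1.37% in parental tumors 1 and 2 and 1.67% and 1.55% in resistant tumors 1 and 2.

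Snrpn lies at the control region of the cluster affected in Prader-Willi syndrome and encodes a splicing protein. Its promoter was at 52.7% and 58.0% in parental tumors and at 51.3% and 37.7% in resistant tumors over 11 sites, with a median of 25 to 58 reads. All 11 sites had a lower mean in the resistant line, and the difference of −10.9 points (FDR = 1.06e-13, edgeR adjusted p = 0.611) came with a wide gap between the resistant tumors: it was −4.08 points without resistant tumor 2 and −17.7 points without resistant tumor 1. At a minimum of 10 reads the difference of this Snrpn region was −0.686 points (FDR = 7.54e-05).

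Peg10, a gene derived from a retrotransposon and needed for the placenta, faces Sgce, a sarcoglycan gene, across a shared promoter. Its 12 sites (chr6:4747355-4747490, in the untranslated start of the Peg10 transcript, 78 to 143 reads each) read 53.4% and 57.0% in parental tumors and 43.2% and 33.3% in resistant tumors, so the lines did not overlap. The difference of −16.9 points was the largest in size among imprinted regions with at least 5 sites (log2 odds ratio −1.07, FDR = 8.70e-38, edgeR unadjusted p = 0.0381, adjusted p = 0.506). At 9 of the 12 sites both resistant tumors were below both parental tumors (41.9% of all regions did not overlap, share over all sites not given here). The most different of them, at position 4747476 of chromosome 6, was methylated in 62 of 92 reads in parental tumor 1 (67.4%, 95% Wilson interval 57.3 to 76.1) and in 51 of 86 in parental tumor 2 (59.3%, 48.7 to 69.1). In resistant tumor 1 it was 35 of 86 (40.7%, 30.9 to 51.3) and in resistant tumor 2 it was 23 of 133 (17.3%, 11.8 to 24.6). These intervals cover counting error only, and can be too narrow even for that, since copies of 1 molecule are counted as separate reads. The site was picked as the most different of its region, as were those of Peg13 and Grb10 below. The intervals leave that choice out.

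Peg13 was higher in the resistant tumors. It is a noncoding RNA transcribed from an intron of Trappc9, and its promoter is the control region of that cluster. Over 26 sites (chr15:72809700-72810676) methylation was 43.1% and 45.2% in parental tumors and 54.7% and 62.2% in resistant tumors. Both resistant tumors were above both parental tumors in the mean and at 19 of the 26 sites. The lines did not overlap in 41.9% of all regions, and the share over all sites is not given here. The difference was 14.3 points (FDR = 4.74e-42, edgeR unadjusted p = 0.0488, adjusted p = 0.534). The 5 sites from 72810054 to 72810097 stood out, with 39.0% and 38.1% against 61.2% and 61.3%. The first of them was methylated in 26 of 70 reads (37.1%, 26.8 to 48.9) and 30 of 77 (39.0%, 28.8 to 50.1) in parental tumors 1 and 2. In resistant tumors 1 and 2 the counts were 41 of 65 (63.1%, 50.9 to 73.8) and 53 of 85 (62.4%, 51.7 to 71.9).

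Kcnq1ot1, the noncoding RNA that silences the Cdkn1c and Phlda2 domain, was below 50% at its promoter. The 7 sites read 21.3% and 36.5% in parental tumors and 33.3% and 34.6% in resistant tumors, with parental tumor 1 apart from the other tumors. The difference of 5.03 points passed the likelihood ratio test (FDR = 0.00936), but was −2.56 points without parental tumor 1, 12.6 points without parental tumor 2 and 4.37 points (FDR = 0.0829) without resistant tumor 2. Slc38a4, an amino acid transporter, was at 36.0%, 31.1%, 34.4% and 34.2% in parental 1, parental 2, resistant 1 and resistant 2 at 3 sites of its upstream promoter, a difference of 0.685 points (FDR = 0.821) that was −1.75 points without parental tumor 2, 3.12 points without parental tumor 1 and 3.73 points at a minimum of 10 reads. At a start further down, 4 sites with 20 to 43 reads read 96.2% and 89.5% against 88.0% and 73.3%. Resistant tumor 2 was lowest there, and the difference of −12.2 points (FDR = 0.000140) was −4.85 points (FDR = 0.364) without it and −19.6 points without resistant tumor 1.

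A group of control regions was above 50% in every tumor. Several of these are promoters of retrogenes, intronless copies that landed in an intron of another gene and are expressed from the paternal copy. Nap1l5, in an intron of Herc3, read 82.7% and 87.8% in parental tumors and 79.2% and 92.9% in resistant tumors over 17 sites. Resistant tumor 1 was lowest and resistant tumor 2 highest, and the difference of 0.789 points (FDR = 0.0601) was 3.32 points without parental tumor 2 and 7.603 points without resistant tumor 1, which passed the test. It was −6.02 points without resistant tumor 2, which passed too, and −1.74 points without parental tumor 1 (FDR = 0.211). Zrsr1, in an intron of Commd1 and coding for a splicing factor, read 72.6% and 87.7% against 80.3% and 90.3% over 39 sites. Its difference of 5.16 points (FDR = 6.00e-13) turned to −2.39 points without parental tumor 1 and was 0.181 points without resistant tumor 2 (FDR = 0.513), while it was 12.7 points without parental tumor 2 and 10.1 points without resistant tumor 1. Mcts2, in an intron of H13, read 76.7% and 72.2% against 69.2% and 55.8% over 18 sites, with both resistant tumors below both parental tumors and a difference of −11.9 points (FDR = 1.39e-33, edgeR adjusted p = 0.600). That difference was −5.23 points without resistant tumor 2 and −18.6 points without resistant tumor 1. It lay upstream of its start, where 13 sites read 78.8% and 74.8% against 67.4% and 50.3%, while 5 sites downstream read 71.2% and 65.5% against 74.0% and 70.1%. The promoters of the host genes Herc3, Commd1 and Trappc9, and that of Blcap, which holds Nnat in an intron, were nearly unmethylated, with 1.01% to 1.86% in all tumors. H13 had 1 site of 32 to 60 reads, with 18.8% in parental tumor 1 and under 10% in the other 3 tumors. Its difference of −7.53 points did not pass the test (FDR = 0.276), but did without parental tumor 2 (−15.2 points) or without resistant tumor 1 (−11 points). It was 0.175 points without parental tumor 1 and −4.02 points without resistant tumor 2.

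Nnat, a small membrane protein of neurons and fat tissue, read 70.8% and 81.5% in parental tumors and 79.5% and 87.4% in resistant tumors over 19 sites. The difference was 7.30 points (FDR = 1.98e-14), and 1.94 points without parental tumor 1 (FDR = 0.242), 12.7 points without parental tumor 2, 11.3 points without resistant tumor 1 and 3.34 points without resistant tumor 2. Peg3, a zinc finger gene, and Usp29, a deubiquitinase gene, start from the same control region, whose 8 sites read 64.9% and 78.3% against 67.1% and 87.3%. In each line tumor 2 was higher there, the lines overlapped, and the difference of 5.60 points (FDR = 0.00157) became −1.05 points without parental tumor 1 and −4.47 points without resistant tumor 2, against 12.3 points without parental tumor 2 and 15.7 points without resistant tumor 1. At another start of Usp29, 5 sites read 68.6%, 68.7%, 69.98% and 63.9% in parental 1, parental 2, resistant 1 and resistant 2 (−1.73 points, FDR = 0.113, and −4.79 points, which passed the test, without resistant tumor 1, but 1.32 points without resistant tumor 2). The measured promoter of Mest, a hydrolase of the mesoderm, is the upstream one, where 6 sites read 79.6% and 80.8% against 78.3% and 85.3%. The lines overlapped there (1.57 points, FDR = 0.288), and without resistant tumor 1 the difference was 5.10 points and passed the test, while without resistant tumor 2 it was −1.95 points. The start of Mest inside the germline control region had no site with 20 reads in all tumors.

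Grb10 encodes an adaptor that restrains insulin and growth factor signaling. Its qualified sites all belong to the upstream promoter, and its start nearest the germline region, further down the gene, had no qualified site. The 127 sites (chr11:12036661-12038772) were at 34.7% and 62.6% in parental tumors 1 and 2 and at 49.8% and 76.2% in resistant tumors 1 and 2. Tumor 2 was above tumor 1 by more than 25 points in each line, so that parental tumor 2 exceeded resistant tumor 1. The means were 48.6% ± 19.8 (SD, n = 2) and 63.0% ± 18.6 (SD, n = 2), a difference of 14.4 points that is smaller than the SD of either line. The FDR was 4.19e-233 and edgeR's adjusted p was 0.745. Without resistant tumor 2 the difference was 1.18 points (FDR = 0.597) and without parental tumor 1 it was 0.396 points, while it was 28.3 points without parental tumor 2 and 27.6 points without resistant tumor 1. The most different site, at −242 bp from the start (position 12037643), was methylated in 35 of 150 reads in parental tumor 1 (23.3%, 17.3 to 30.7) and 58 of 172 in parental tumor 2 (33.7%, 27.1 to 41.1). The share was 86 of 191 (45.0%, 38.1 to 52.1) in resistant tumor 1 and 256 of 301 (85.0%, 80.6 to 88.6) in resistant tumor 2.

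The Gnas cluster on chromosome 2 has several promoters with opposite marks. The Nesp promoter is methylated on the paternal copy, while the promoters of Nespas (an antisense RNA), of the XL form and of exon 1A are methylated on the maternal copy, and the promoter of the main product, the stimulatory G protein alpha subunit (Gs), is unmethylated on both. In every tumor the Nesp promoter was the most and the Gs promoter the least methylated among those of Nesp, XL, exon 1A and Gs. At the Nesp promoter 36 sites read 59.0% and 81.3% in parental tumors and 67.3% and 83.2% in resistant tumors, with tumor 2 higher in each line. The difference of 5.06 points turned to −6.05 points without parental tumor 1 and to −2.88 points without resistant tumor 2, and was 16.2 points without parental tumor 2 and 13.01 points without resistant tumor 1. The 33 sites around the downstream start of Nespas, of which 23 are shared with the Nesp promoter, read 67.1% and 83.5% against 73.4% and 88.9%. Their difference of 5.84 points was −2.41 points without parental tumor 1 and −1.90 points without resistant tumor 2, against 14.1 points without parental tumor 2 and 13.6 points without resistant tumor 1.

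At the XL promoter 26 sites read 53.4% and 46.3% in parental tumors and 46.8% and 36.4% in resistant tumors. Its difference of −8.23 points (FDR = 1.00e-16) was −3.02 points without resistant tumor 2 (FDR = 0.112), −4.67 points without parental tumor 1 and −13.4 points without resistant tumor 1. The joined window of the main Nespas start was lower still, with 29.3% and 17.8% against 18.0% and 5.47% over 12 sites. Of these, 8 are shared with the window of the XL start and lie at −1995 to −1916 bp from the Nespas start. Those 8 read 37.4% and 21.2% against 26.3% and 8.21%, with parental tumor 2 below resistant tumor 1. The other 4, at −96 to −53 bp with 23 to 56 reads, read 13.04% and 11.2% against 1.37% and 0%. At these 4 both resistant tumors were below both parental tumors in the mean. All 12 sites were lower on average in the resistant line, with a difference of −11.8 points (FDR = 1.21e-20, edgeR adjusted p = 0.657). In the mean over all 12, parental tumor 2 (17.8%) was below resistant tumor 1 (18.0%). The difference was −6.11 points without parental tumor 1, −5.57 points without resistant tumor 2 and −18.1 points without resistant tumor 1.

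At exon 1A, the first 10 sites (chr2:174327850-174327950) were at 44.0% and 41.6% against 44.1% and 42.4%, so the tumors lay within 3 points of each other. The next 24 sites read 39.9% and 32.2% against 32.0% and 22.7%, and the 15 after them (chr2:174328691-174328781) read 49.7% and 27.1% against 25.6% and 19.6%, with parental tumor 1 highest and resistant tumor 2 lowest in both stretches. From position 174329692 on, 35 sites were at 0.878% to 1.77%, and the 123 sites over the Gs start were at 1.28% to 1.39%. As 1 joined region, exon 1A and the Gs promoter held 218 sites at 10.9% and 8.32% against 8.36% and 6.84%. The difference of −2.02 points of that region lost its call without parental tumor 1 (−0.719 points, FDR = 0.772) and without resistant tumor 2 (−1.26 points, FDR = 0.199), and was −3.33 points without parental tumor 2 and −1.17 points at a minimum of 50 reads.

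**Figure D2:**
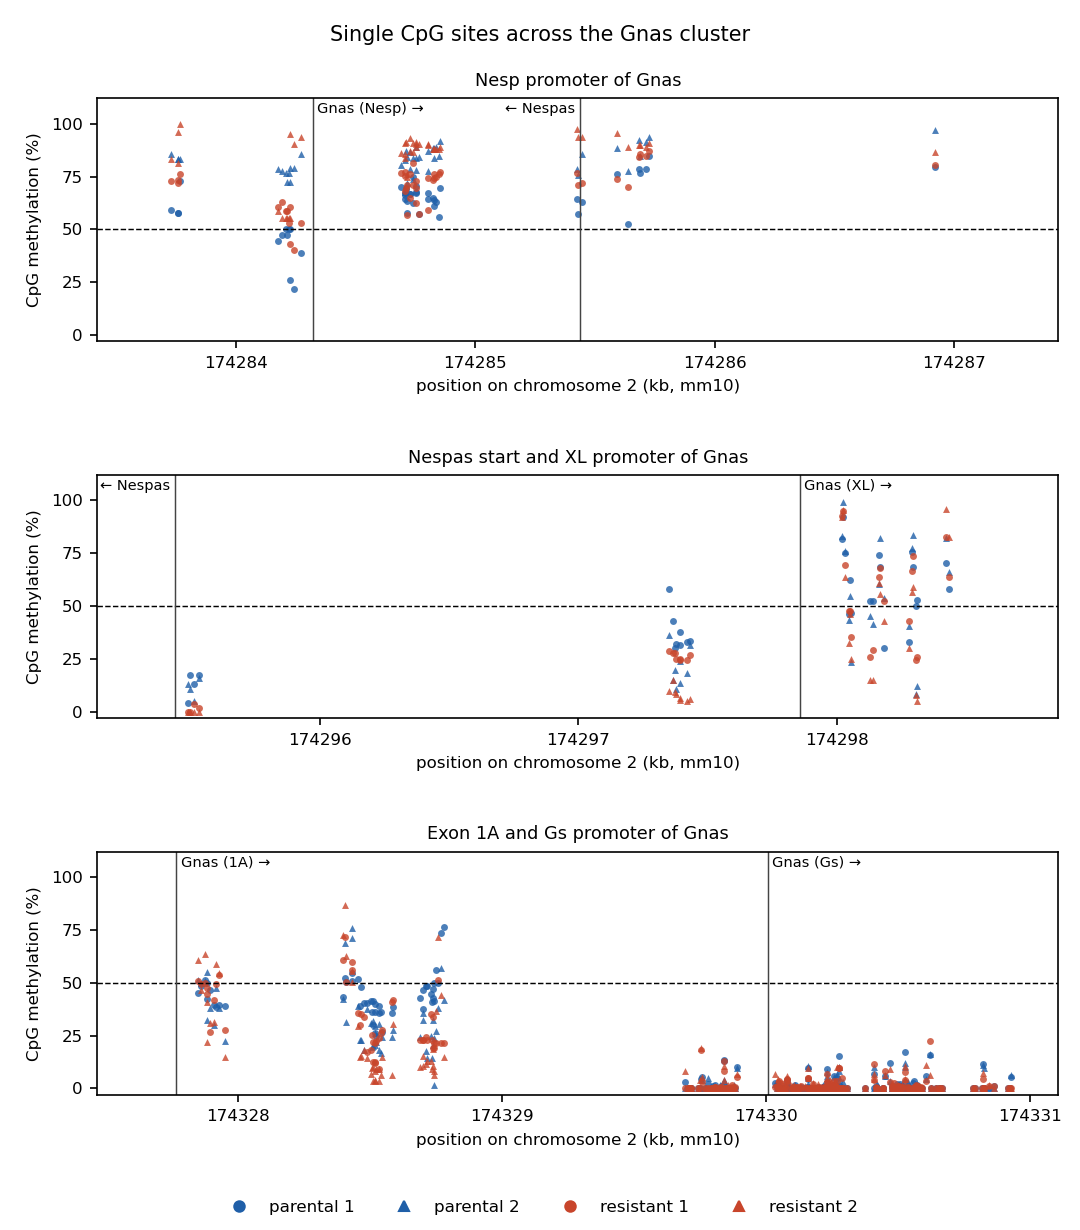
Methylation (%) of single CpG sites against position (kb, mm10) at the Nesp, Nespas and XL, and exon 1A and Gs promoters of the Gnas cluster, with 1 point per site and tumor (blue, parental; red, resistant; circle, tumor 1; triangle, tumor 2). Vertical lines are TSS with the direction of transcription; sites over the Gs start average 1.28% to 1.39%, while those at the start of exon 1A average 41.6% to 44.1%.

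At the paternally methylated control regions of H19, Meg3 and Rasgrf1 few sites qualified. H19 is a noncoding RNA whose upstream control region binds Ctcf on the unmethylated maternal copy and so keeps the enhancers from Igf2. In the window of up to 5000 bp upstream of H19 (chr7:142580144-142583143) a single site qualified, at −3244 bp from the start. It was methylated in 70 of 82 reads in parental tumor 1 (85.4%, 76.1 to 91.4) and in 23 of 28 in parental tumor 2 (82.1%, 64.4 to 92.1). In resistant tumor 1 it was 42 of 102 (41.2%, 32.1 to 50.9) and in resistant tumor 2 it was 40 of 74 (54.1%, 42.8 to 64.9). The lines did not overlap, at 83.8% ± 2.28 and 47.6% ± 9.11 (SD, n = 2 each), a difference of −36.1 points. The exact permutation p, two-sided, was 0.33, the smallest for 2 tumors against 2, and edgeR gave an unadjusted p of 0.0169 and an adjusted p of 0.452. At a minimum of 10 reads 2 more sites of this region qualified, and the mean over the 3 was 70.2% and 84.5% against 66.3% and 65.6%, a difference of −11.4 points. The added sites did not share the gap between the lines: that at −3044 bp was at 77.8% and 92.9% against 92.3% and 70%, and that at −3087 bp at 47.4% and 78.6% against 65.4% and 72.7%, with 14 to 26 reads each.

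At the promoter of H19 itself, 7 sites were at 52.8% and 43.9% in parental tumors and 54.95% and 49.6% in resistant tumors, with the lines overlapping (3.93 points, FDR = 0.165). Without parental tumor 1 the H19 promoter difference was 8.40 points (FDR = 0.00603), without resistant tumor 2 it was 6.63 points (FDR = 0.0266), without parental tumor 2 it was −0.536 points (FDR = 0.752) and without resistant tumor 1 it was 1.24 points (FDR = 0.810). With reads pooled it was 0.943 points. Meg3 is a noncoding RNA of the Dlk1 cluster, and at its internal start 1 site read 99.0% and 96.4% against 96.6% and 90.7% (−4.03 points, FDR = 0.0527). Without parental tumor 2 (−5.38 points) or resistant tumor 1 (−7.00 points) that site passed the test, while it was at −2.69 points without parental tumor 1 and −1.07 points without resistant tumor 2 (FDR = 0.313 and 0.795). At a minimum of 10 reads the internal start of Meg3 passed it as well, at −20.1 points (FDR = 1.16e-11). With the strands of a CpG merged that start was at −2.15 points and did not pass (FDR = 0.0978). The promoter of Meg3 itself had no site with 20 reads in all tumors. Further upstream of Meg3, on the side where its germline control region lies, 4 sites (chr12:109525712-109525792) were at 32.2% and 37.9% in parental tumors and 22.4% and 22.3% in resistant tumors. Both resistant tumors were below both parental tumors in the mean over these 4 sites, which were not tested.

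Rasgrf1, a guanine nucleotide exchange factor of neurons, is controlled by a repeat region upstream of its promoter. Over 39 sites the promoter of Rasgrf1 (chr9:89908680-89910417) was at 27.4% and 61.3% in parental tumors 1 and 2 and at 40.7% and 74.3% in resistant tumors 1 and 2. As at Grb10, tumor 2 was the higher one of each line, here by more than 30 points, and parental tumor 2 exceeded resistant tumor 1. The difference of 13.2 points (FDR = 2.53e-48, edgeR adjusted p = 0.809) was smaller than the SD of the parental line (23.9) or of the resistant line (23.7), and it became −3.75 points without parental tumor 1 and −3.61 points without resistant tumor 2, against 30.1 points without parental tumor 2 and 29.9 points without resistant tumor 1. Upstream of the Rasgrf1 window, 4 sites (chr9:89885782-89886081) were at 36.5% and 56.4% against 34.996% and 46.8%, and these were not tested.

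**Figure D3:**
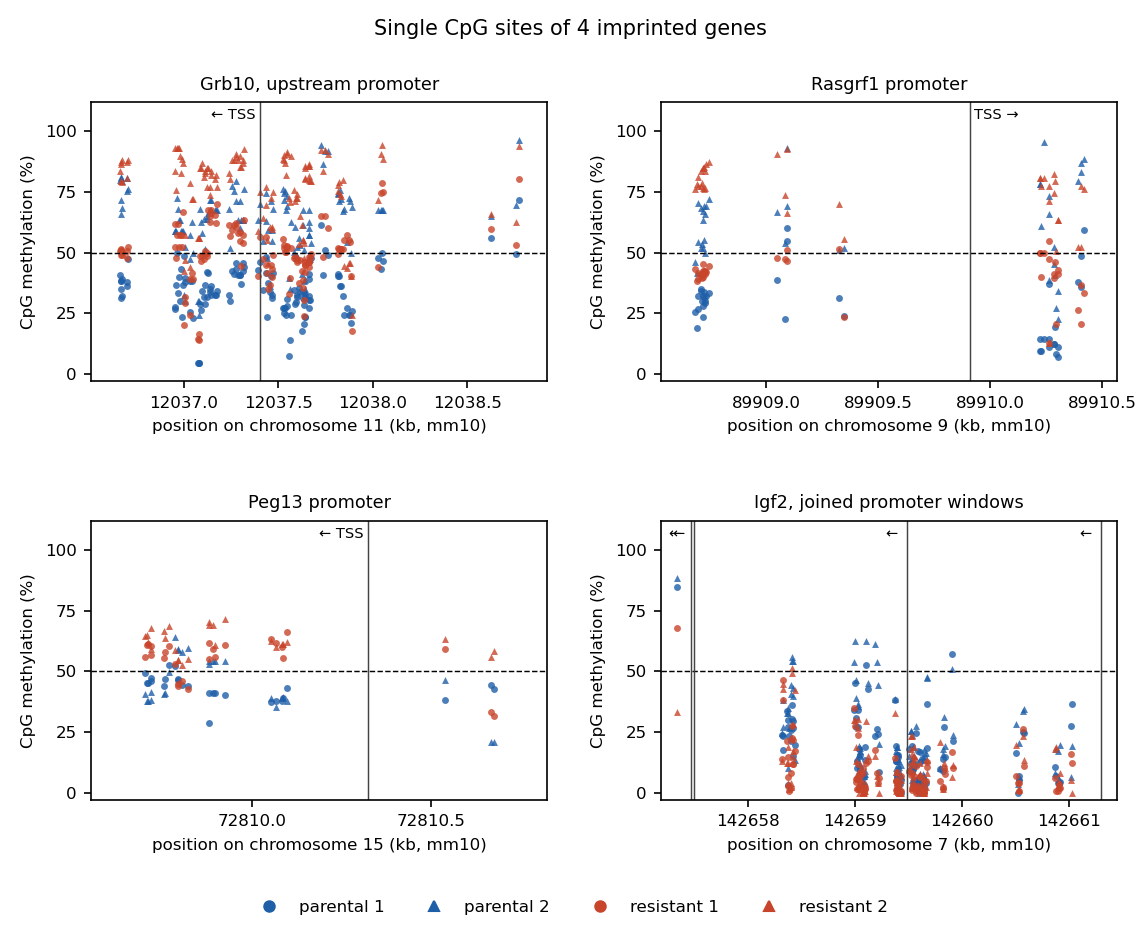
Methylation (%) of single CpG sites against position (kb, mm10) at the promoter regions of Grb10, Rasgrf1, Peg13 and Igf2, with 1 point per site and tumor (blue, parental; red, resistant; circle, tumor 1; triangle, tumor 2) and TSS as vertical lines. At Grb10 and Rasgrf1 tumor 2 of each line lies above tumor 1 (62.6% against 34.7% and 76.2% against 49.8% at Grb10), while at Peg13 both resistant tumors lie above both parental tumors.

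The other 21 listed genes are imprinted through a control region elsewhere in their cluster, and 17 of them had sites, with 1 region each. Of these 17 regions 11 were called, 7 lower and 4 higher in resistant tumors, and none by at least 10 points. Of all regions 43.2% were called (34.1% lower, 9.14% higher), and 13.5% by at least 10 points. From 35% to 65% in every tumor were 4 of them, Igf2r, Cdkn1c, Dlk1 and Asb4, and 9 were below 35% in every tumor, 7 of these below 10%. Igf2r, the receptor that degrades Igf2, was between 41.3% and 55.9%, and Cdkn1c, an inhibitor of the cell cycle, between 46.4% and 64.5%. Dlk1, a ligand related to those of Notch, was between 38.8% and 61.1%, and Asb4, a subunit of ubiquitin ligases, between 49.1% and 64.1%. In the cluster of Snrpn, the promoters of Magel2, Mkrn3 and Peg12 ranged from 50.9% to 74.5%, and Zim1, next to Peg3, from 27.6% to 49.8%.

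Some of these calls and differences changed with 1 tumor left out. That also leaves tumors numbered 1 and 2 unequal between the lines. Tumor 2 was the higher one of each line at Mkrn3 (54.7% and 68.3% against 56.4% and 72.2%) and Peg12 (50.9% and 69.5% against 53.9% and 74.5%). At Asb4 it was the lower one (56.2% and 49.4% against 64.1% and 49.1%). Without resistant tumor 2 the difference of Cdkn1c went from 9.92 to 2.44 points (FDR = 0.159) and that of Igf2r from 6.83 to 1.43 points (FDR = 0.987). Without resistant tumor 1 they were 17.4 and 12.2 points, and Igf2r was at 4.48 points without parental tumor 1. The differences of Mkrn3 (2.82 points) and Peg12 (4.00 points) turned to −4.00 and −5.33 points without parental tumor 1 and to −5.07 and −6.28 points without resistant tumor 2. They were 9.63 and 13.3 points without parental tumor 2, and 10.7 and 14.3 points without resistant tumor 1. Those of Dlk1 (−7.31 points), Magel2 (−4.05 points) and Zim1 (−5.49 points) turned to 1.19, 0.430 and 5.58 points without parental tumor 2, and Zim1 also to 0.117 points without resistant tumor 1. Without parental tumor 1 these 3 were at −15.8, −8.53 and −16.6 points. Dlk1 was at −0.873 points without resistant tumor 1 and −13.7 points without resistant tumor 2, where Zim1 was at −11.1 points. Asb4 was not called (3.79 points, FDR = 0.210), but passed the test without parental tumor 1 (7.18 points) or resistant tumor 2 (11.3 points), and was at 0.397 points without parental tumor 2 and −3.72 points without resistant tumor 1. By the likelihood ratio test other coverage minimums kept the calls of the other regions in this paragraph but moved some of the differences, and edgeR called none of these regions. At a minimum of 10 reads Cdkn1c was at 6.30 and Mkrn3 at 1.03 points, at 50 reads Dlk1 was at −11.96 and Igf2r at 3.30 points, and with reads pooled, which was not tested, Igf2r was at 4.43 and Zim1 at −3.56 points. Asb4 was at 1.66 points at 50 reads, 0.810 points with the strands of a CpG merged and 0.887 points with reads pooled.

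Below 10% were Blcap, Commd1, Herc3 and Trappc9, given above, and Ube3a, Phlda2 and Kcnq1. Ube3a, a ubiquitin ligase imprinted in neurons only through an antisense transcript, read 0.547% to 1.07%. Its call (−0.344 points, FDR = 0.0389) was lost without parental tumor 1, parental tumor 2 or resistant tumor 1 (−0.389, −0.299 and −0.206 points). It was also lost at a minimum of 50 reads (−0.216 points, FDR = 0.282) and with the strands of a CpG merged (−0.305 points, FDR = 0.0828), and the difference was −0.214 points with reads pooled. Phlda2, which limits growth of the placenta, read 7.96% to 9.43%, and its difference of −1.05 points was −0.636 points without parental tumor 1 (FDR = 0.917) and −0.0204 points in a window from 1000 bp upstream to 500 bp downstream (FDR = 0.501). It was −2.54 points at a minimum of 50 reads and −2.30 points with reads pooled. Kcnq1, a potassium channel singled out after its values were seen, read 6.34% and 8.13% in parental tumors and 3.93% and 4.23% in resistant tumors over 48 sites, lower in both resistant tumors (−3.15 points, edgeR unadjusted p = 0.00959, adjusted p = 0.428).

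Igf2, the fetal growth factor silenced on the maternal copy, had the smallest edgeR p of the imprinted regions and was singled out after its values were seen. Over 118 sites in the joined windows of its starts (chr7:142657342-142661036, mostly untranslated exons and introns) it was at 15.5% and 20.4% in parental tumors and at 7.58% and 9.49% in resistant tumors. Both resistant tumors were below both parental tumors in the mean and at 83 of the 118 sites. The lines did not overlap in 41.9% of all regions, and the share over all sites is not given here. The means were 18.0% ± 3.48 and 8.54% ± 1.35 (SD, n = 2), a difference of −9.42 points with an edgeR log2 odds ratio of −1.26 (unadjusted p = 0.00321, adjusted p = 0.333). The difference passed the likelihood ratio test, also with any 1 tumor left out, and was spread along the gene. There, 27 sites from 142658997 to 142659227 read 19.2% and 26.5% against 8.26% and 9.72%, and 53 sites from 142659375 to 142659678 read 9.66% and 12.1% against 3.57% and 5.33%. Igf2 was thus lower in the resistant tumors while the single site of the H19 control region was lower too and the H19 promoter was not called. How the 3 relate was not tested, and no RNA was analysed here.

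A further list of 41 imprinted genes outside the 44 had 36 measured regions of 32 genes. Of these, 21 were called (15 lower, 6 higher), where 43.2% of all regions are called, 34.1% lower and 9.14% higher. Zfp264 and Zim3 share their sites there, and with each set of sites once 20 of 35 were called (14 lower, 6 higher). edgeR called 0 of the 36, with 6 at an unadjusted p under 0.05 against 9.34% of all regions, and 1 lay from 35% to 65% in every tumor. Their median difference was −0.622 points. Among 21 genes that set or keep imprints, all had sites, in 25 regions, and 18 of these regions were below 10% in every tumor. The likelihood ratio test called 7 of the 25 (5 lower, 2 higher) and edgeR called 0, with 0 at an unadjusted p under 0.05.

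Markers of cell types and the share of chromosome Y calls are given beside these levels. Promoter sites were measured for 9 of 14 marker genes of epithelium, leukocytes, fibroblasts and endothelium, of which 5 were called (4 lower, 1 higher), where the shares of all regions are 43.2%, 34.1% and 9.14%. edgeR called 0 of the 9, with 0 at an unadjusted p under 0.05 against 9.34% of all regions. The medians over these 9 regions were 17.0% and 18.2% in parental tumors and 12.5% and 19.7% in resistant tumors. Calls on chromosome Y made up 0.0406% and 0.0254% of all CpG calls in parental tumors 1 and 2 and 0.0555% and 0.0178% in resistant tumors 1 and 2. The hosts were female, and tumor 2 had the lower share of each line. The share of tumor cells was not measured, and its part in these levels was not tested. Read depth within 1 Mb of each imprinted region, relative to all autosomes, differed between the lines by a log2 ratio from −0.20 at Herc3 to 0.08 at Peg12, and its part was not tested either.

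The windows of imprinted genes were rich in CpG and in the hexamer TGCCGC, which Zfp57 binds when its CpG is methylated. TGCCGC was found on either strand in 78.8% of the 113 TSS windows of imprinted genes and in 37.1% of all 77221 TSS windows of the same length. Windows of starts that lie close together overlap, so the same hexamer can count in several of them. The median number of CpG was 106 in the imprinted windows and 40 in all. Among windows with a qualified site the shares were 90% of 90 and 58.6% of 35952, with a median of 113.5 and 92 CpG. The hexamer was not tested apart from CpG content. GGNGGCAG, a part of the Ctcf motif, was found in 44.2% of imprinted windows and 62.8% of all, and among those with a qualified site in 46.7% and 76.3%. The upstream window of H19 held 5 matches to GGNGGCAG, 2166, 2621, 3647, 3766 and 3891 bp upstream, and the qualified site lies in none of them. In the class of maternal control regions, 25 sites in TGCCGC were at 48.6% and 48.6% in parental tumors and 49.5% and 52.1% in resistant tumors. The 682 other sites of that class were at 37.2% and 44.2% against 40.1% and 46.1%. The class also holds promoters away from the control regions, such as the Gs start (1.28% to 1.39%) and the upstream promoter of Inpp5f (1.37% to 2.0%). Sites in and outside TGCCGC were not matched for region, so these levels do not show a difference that goes with the hexamer. Over all promoter regions, sites in TGCCGC were below the other sites, at 8.59% and 11.1% against 8.65% and 11.01% (parental against resistant) where the others were at 10.6% and 12.9% against 10.4% and 12.2%.

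Stretches of 4 of the regions above, outside exons of coding genes, are given from the reference genome (GRCm38), in the direction of each gene, with the qualified CpGs in capitals. H19 upstream is chr7:142581327-142581447 on the minus strand, intergenic, around the only qualified site. Peg13 is chr15:72809695-72809930 on the minus strand, in the Peg13 exon and an intron of Trappc9, where 18 sites read 44.5% and 49.8% against 55.1% and 63.0%, followed by chr15:72810049-72810102 on the same strand, with the 5 sites that stood out. Mcts2 is chr2:152686849-152686985 on the plus strand, just upstream of its start and in an intron of H13. Rasgrf1 is chr9:89908675-89908749 on the plus strand, intergenic, where 16 sites read 29.8% and 59.4% against 41.7% and 80.9%.
H19 upstream: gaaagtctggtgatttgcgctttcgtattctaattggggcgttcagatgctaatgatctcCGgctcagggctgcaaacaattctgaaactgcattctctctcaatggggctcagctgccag
Peg13: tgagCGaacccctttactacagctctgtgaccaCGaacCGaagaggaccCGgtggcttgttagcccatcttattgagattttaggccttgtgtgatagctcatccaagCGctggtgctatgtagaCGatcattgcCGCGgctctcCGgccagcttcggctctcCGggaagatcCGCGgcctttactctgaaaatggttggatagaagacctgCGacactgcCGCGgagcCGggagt
Peg13, 5 sites: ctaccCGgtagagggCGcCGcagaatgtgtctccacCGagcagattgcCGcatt
Mcts2: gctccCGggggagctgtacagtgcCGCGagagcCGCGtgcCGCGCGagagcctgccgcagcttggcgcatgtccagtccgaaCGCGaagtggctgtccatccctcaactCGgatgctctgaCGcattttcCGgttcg
Rasgrf1: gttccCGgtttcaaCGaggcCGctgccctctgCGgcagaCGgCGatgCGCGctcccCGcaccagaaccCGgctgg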

How the data were processed

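Methylation was measured by RRBS in 4 tumors, grouped by the sample labels. The authors trimmed reads with Trim Galore 0.4.1 and cutadapt 1.9.1, mapped them to mm10 with Bismark and Bowtie 1.1.2, and deposited for each tumor the coverage of every CpG and strand as a count of reads, with the percent methylated and unmethylated. Methylated reads were recomputed from coverage and percent. A region's level is the mean percent of its sites. At 20 reads, 1 read is worth 5 points. TSS came from GENCODE vM21 basic.

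Each site had a logistic model of its reads on line alone, compared by likelihood ratio with a model without line as methylKit does (p not below 2.2e-16), and sites were combined by signed Stouffer's z, two-sided, with Benjamini-Hochberg adjustment over 23720 regions. edgeR 4.0.16 tested methylated and unmethylated reads per region with an effect for each tumor. Both were also run on simulated data, whose outcome is not given here. The labels do not say whether same-numbered tumors share a batch, and the tumors of a line came from different mice. Members and lists were chosen with earlier results of these data known. Values in every tumor are given for each region of the germline control class, for H19 upstream, and for regions of at least 5 sites that differ by at least 10 points. Coverage, windows, strands, annotation, left-out tumors and tests were varied. Python 3.11.15, numpy 2.4.6, scipy 1.17.1, pandas 2.3.3 and R 4.3.3 were used.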

Additional observations from a re-analysis of the deposited data

How the results depend on the processing

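With 2 tumors a line, differences between tumors of 1 line limit every comparison, and a test on reads alone does not measure them. Of 432 differences of single imprinted regions recomputed with other sites, windows or tumors, 363 kept direction and side of the threshold of the likelihood ratio test, 19 lost and 13 gained the call, and 37 turned sign. Of those that turned, 3 did so with every tumor kept: Herc3 (0.0271 points) was −0.0912 at 10 reads and −0.164 at 50 reads, and Blcap (0.0110 points) was −0.0214 with strands merged, none of them called. The others turned with 1 tumor left out, which also leaves the tumor numbers unequal between the lines. With reads pooled, which was not tested, 41 of 45 differences moved by less than 1 SD of same-line tumors, and Herc3 was at −0.126 points, Blcap at 0.293, Kcnq1 at −4.10 and Phlda2 at −2.30 points. With each tumor left out in turn, the lowest and highest values of regions that were called were −15.8 and 1.19 for Dlk1, −6.05 and 16.2 for Gnas 1, −2.56 and 12.6 for Kcnq1ot1, −8.53 and 0.430 for Magel2, −5.07 and 10.7 for Mkrn3, −2.41 and 14.1 for Nespas 2, −6.28 and 14.3 for Peg12, −4.47 and 15.7 for Peg3 and Usp29 1, −3.75 and 30.1 for Rasgrf1, −16.6 and 5.58 for Zim1 1, and −2.39 and 12.7 points for Zrsr1. Among regions that were not called they were −3.72 and 11.3 for Asb4, −0.0364 and 0.0583 for Blcap, −0.174 and 0.369 for Commd1, −15.2 and 0.175 for H13, −0.536 and 8.40 for H19, −0.0925 and 0.147 for Herc3, −0.391 and 0.240 for Inpp5f 1, −1.95 and 5.10 for Mest, −6.02 and 7.603 for Nap1l5, −1.75 and 3.12 for Slc38a4 1, and −4.79 and 1.32 points for Usp29 2. The cause was not tested.

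Leaving out 1 tumor at a time gave 27 to 36 imprinted regions called and 8582 to 11224 of all regions, 0 imprinted regions by edgeR, a median difference of −2.42 to −0.0240 points, 11 to 13 regions from 35% to 65%, and −42.6 to −29.7 points for H19 upstream. The edgeR test called 0 imprinted regions (6 at an unadjusted p under 0.05, 33 by the likelihood ratio test) and 3 of all regions. Asking for at least 10 points left 10 imprinted and 3206 of all regions. A band of 40% to 60% held 4 regions. At 10 reads H19 upstream was −11.4 points, with 3 sites, and at 50 reads or with at least 5 sites it gave no value. The other changes of coverage, window, strand, annotation and pooling left those counts within 1.5 times. The median difference, −0.0323 points, was −0.0912 at 10 reads, 0.0110 at 50 reads, 0.0271 in the narrower window or with at least 5 sites, 0.0190 with RefSeq, −0.0809 with strands merged and −0.0663 points with reads pooled.

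The labels give no shared batch for tumors of the same number, so no pairing is established. Deviations of same-numbered tumors correlated with r = 0.648 across 23720 regions and r = 0.778 across the 46 imprinted regions, which are not independent. With the replicate block edgeR called 12 of 46 imprinted regions and 3418 of all 23720 regions. The 12 were Igf2, Kcnq1, Nespas 1, H19 upstream, Peg10, Sgce, Mcts2 and Gnas 3 (8 lower), and Grb10 (adjusted p = 2.05e-07), Rasgrf1, Zrsr1 and Peg13 (4 higher). Peg10 and Sgce among them are the same sites. The Mantel-Haenszel test with the block called 32 imprinted and 10090 of all regions, without Ube3a (FDR = 0.0541).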
